A study of Mus musculus with 18 samples.

Results

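The miR-148 and miR-152 family was followed through a series of small RNA libraries from C2C12, a mouse myoblast line that fuses into myotubes when serum is lowered. Its members were taken by name: mmu-miR-148a-3p, mmu-miR-148b-3p and mmu-miR-152-3p, written below without the species prefix, 3 of the 2042 miRNA names listed. The family is known for repressing DNA methyltransferase genes in human cells, and miR-148a is known to promote myogenic differentiation of mouse myoblasts by repressing Rock1. ROCK1 is a kinase downstream of RhoA that stabilises actin filaments, and actin in turn controls the nuclear entry of MRTF-A (myocardin-related transcription factor A, gene Mrtfa), a coactivator of serum response factor. miRNAs of a family share a seed, bases 2 to 8 of the mature strand, which pairs with matching sites in the 3'UTR of target mRNAs.

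The series asked which miRNAs the MRTF-A 3'UTR retains before and after myogenic differentiation. The capture, miTRAP, uses an immobilised RNA as bait for the miRNAs of a lysate. There are 18 small RNA libraries in 6 groups of 3: eluates of the MRTF-A bait (MRTF-A miTRAP), eluates of the MS2 control bait (MS2control miTRAP) and input RNA of the lysate, each from differentiated cells (7 days in DMEM with 2% HS) and from undifferentiated cells (DMEM with 10% FCS). All 18 are labelled C2C12 cells, with the tissue given as myoblasts in both states. The label text on the 7 days of treatment stands with every sample, so the state was read from the titles. Separate cultures are not named, and the p-values therefore speak for the spread of these libraries alone, which could be technical. The labels do not say which stretch of the 3'UTR the bait held, or of which species. Below, the letters A, B and C stand for the column suffixes of the libraries in each group.

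The members differ outside the seed, and reads can be told apart only there. The mature strands (RefSeq, GRCm38.p6) are shown 5′ to 3′ with the seed in capitals, since the shared seed defines the family and the other bases decide which name a read receives:
miR-148b-3p: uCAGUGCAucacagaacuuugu
miR-152-3p: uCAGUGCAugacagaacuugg
miR-148a-3p: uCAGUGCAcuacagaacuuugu
Counted from 1 at the 5′ end, miR-148a-3p differs from miR-148b-3p by C9U and U10C over 22 positions. miR-148b-3p differs from miR-152-3p by C10G and U20G over 21 positions. How the authors treated reads that fit several names is not given in the sources used here, so a small transfer of reads between members cannot be told apart from low levels of the scarcer ones.

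Each strand comes from its own locus. miR-148b-3p lies at chr15:103285185-103285206 on the plus strand, inside an intron of Copz1 on the same strand (GENCODE vM21). miR-152-3p lies at chr11:96850439-96850459 on the plus strand, inside an intron of Copz2, the paralog of Copz1. Both host genes encode zeta subunits of the COPI coat. miR-148a-3p lies at chr6:51269829-51269850 on the minus strand, with no other annotated gene across its hairpin. Among 1679 mature mouse miRNAs of the RefSeq table these are the 3 names with the seed CAGUGCA at bases 2 to 8. The same letters stand at bases 1 to 7 of 7 further names, among them miR-130a-3p, miR-130b-3p and miR-301a-3p, whose own seed is therefore shifted by a base.

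Levels are normalised CPM, counts scaled by the effective library size that the authors set. Whole reads were recovered from them. A library held 306483 to 544504 reads in the differentiated and 107165 to 352674 in the undifferentiated MRTF-A eluates, 314110 to 462847 and 294112 to 860828 in differentiated and undifferentiated input, and 15562 to 23433 and 20525 to 39695 in the MS2control eluates. A read was worth 1.66 to 3.05 CPM in input and 11.9 to 34.3 CPM in the MS2control eluates, so low members were poorly resolved there. Human-named miRNAs took 0.755 to 0.930% of the reads in 3 MS2control libraries (differentiated A and B, undifferentiated A) and 0.0900 to 0.115% in the other MS2control libraries. In input they took 0.221% in differentiated library C, 0.106% in undifferentiated library A and 0.00941 to 0.0212% in the others. As a check of the labels, the summed level of 6 striated muscle miRNAs was 48696 to 77883 CPM in differentiated input and 431 to 3441 CPM in undifferentiated input, where miR-1a-3p, miR-499-5p and miR-208b-3p had 0 reads. The summed blood markers stayed at or below 4.30 CPM in both inputs. The 2 smooth muscle and fibroblast markers summed to 23202 to 52914 CPM in differentiated and 27370 to 28120 CPM in undifferentiated input. Neural markers summed to 38.7 to 67.6 CPM in differentiated and 158 to 262 CPM in undifferentiated input. Epithelial markers summed to 25.7 to 43.2 and 23.2 to 85.3 CPM, and the endothelial marker stayed at or below 3.05 CPM.

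miR-148b-3p was by far the most abundant member and carried 8733 reads over the 18 libraries, against 926 of miR-152-3p and 120 of miR-148a-3p. The 3 members made up 0.217 ± 0.0226% of the reads in differentiated and 0.147 ± 0.0396% in undifferentiated bait eluates (SD, n = 3 each). They took 0.143 ± 0.0279% in differentiated and 0.297 ± 0.0709% in undifferentiated input, and 0.0513 ± 0.0232% and 0.0382 ± 0.0055% in the differentiated and undifferentiated MS2control eluates. In differentiated MRTF-A eluates it stood at 3191, 3725 and 2613 CPM in libraries A, B and C, and in undifferentiated MRTF-A eluates at 2928, 3232 and 2269 CPM. Input held 1098, 896 and 701 CPM in differentiated cells and 1985, 3465 and 3754 CPM in undifferentiated cells. The MS2control eluates held 365, 172 and 244 CPM from differentiated cells and 131, 178 and 107 CPM from undifferentiated cells. Both bait groups and undifferentiated input overlapped at the top, differentiated input lay below all of these, and every MS2control library lay below every input and bait library. Scaled by all reads of a library the top of this order changed. In reads per library total, on the CPM scale, differentiated bait eluates were then at 1827 ± 204 (SD, n = 3), below undifferentiated input at 2798 ± 679, without overlap. Undifferentiated bait eluates, at 1387 ± 353, then overlapped differentiated input at 1187 ± 264. By CPM miR-148b-3p ranked 36 of 781 names with reads in differentiated bait eluates and 65 of 1127 in differentiated input.

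miR-152-3p came next in abundance. It stood at 427, 643 and 540.0 CPM in differentiated MRTF-A eluates and at 169, 116 and 75.6 CPM in undifferentiated ones. Differentiated input held 184, 188 and 151 CPM, against 125, 161 and 197 CPM in undifferentiated input, which overlap. With the MS2control it rested on 2, 1 and 2 reads in differentiated cells and on 5, 0 and 1 reads in undifferentiated cells. The differentiated bait eluates lay above every other library, while undifferentiated bait, the inputs and undifferentiated MS2control formed a run of overlapping neighbours. Scaled by all reads of a library, differentiated bait eluates overlapped differentiated input and the undifferentiated MS2control.

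miR-148a-3p, the member known from myogenesis, was close to the limit of detection throughout. Differentiated MRTF-A eluates held 15, 15 and 14 reads (65.4, 50.0 and 72.0 CPM), and undifferentiated ones 3, 6 and 1 reads (46.0, 49.8 and 12.6 CPM). Differentiated input held 5, 9 and 5 reads (9.18, 16.9 and 10.8 CPM), against 4, 16 and 25 reads (12.2, 44.5 and 41.4 CPM) in undifferentiated input. The MS2control had 0 reads in the 3 differentiated libraries and 0, 0 and 2 in the undifferentiated ones. The inputs overlapped between the states. Differentiated bait eluates lay above undifferentiated ones and above both inputs in CPM, though barely above undifferentiated bait library B (50.0 against 49.8 CPM). Scaled by all reads, they overlapped undifferentiated bait eluates, undifferentiated input and the undifferentiated MS2control.

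**Figure D1:**
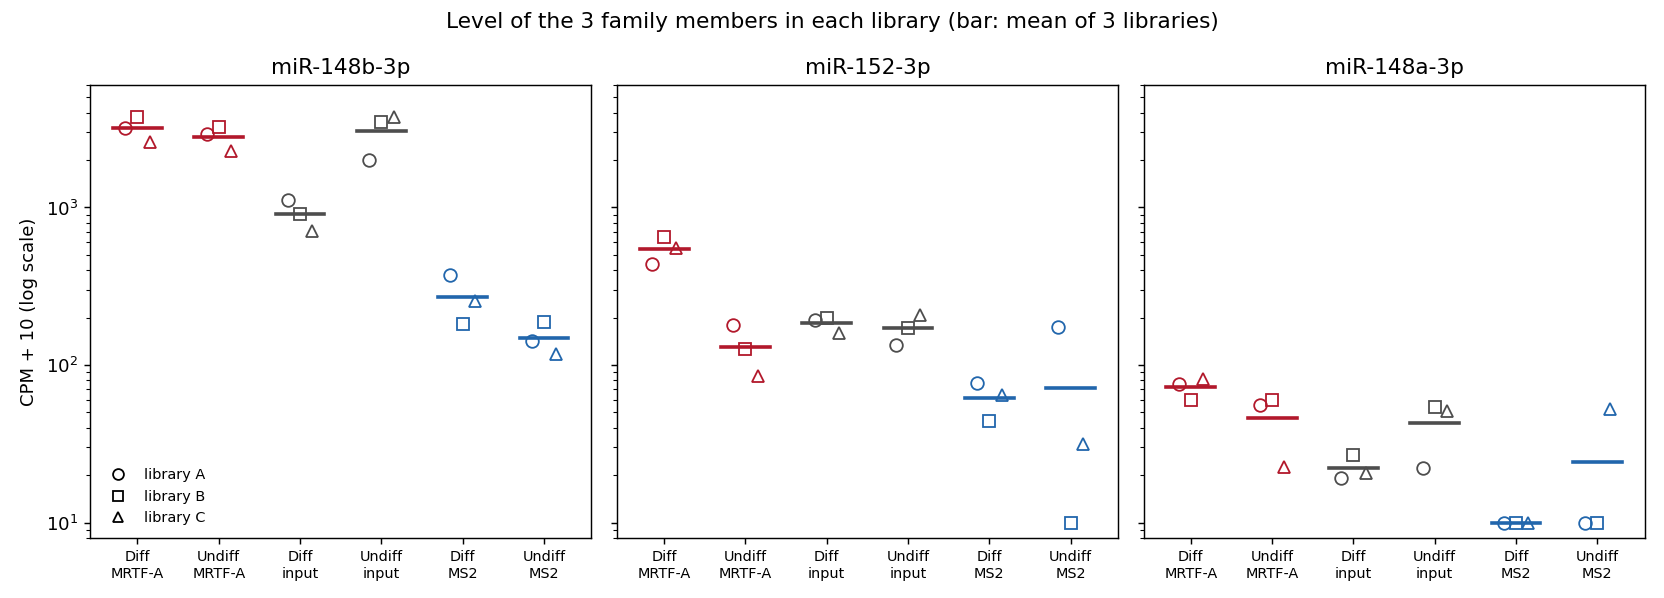
Level of each member in the 18 libraries, as CPM + 10 on a log axis, with symbols for libraries A, B and C and a bar for the mean of 3 libraries. miR-148b-3p is high in bait eluates and undifferentiated input, lower in differentiated input (701 to 1098 CPM) and lowest with the MS2control; miR-148a-3p stays at or below 72.0 CPM.

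The family in the cells themselves was compared between the states in input. miR-148b-3p fell to 898 ± 198 CPM in differentiated input, against 3068 ± 949 CPM in undifferentiated input (SD, n = 3 each). The log2 fold change was -1.73 ± 0.34 (SE, adjusted p = 0.000828, limma over all names tested), or -1.09 relative to the median of all names, and was lower in all 3 libraries. miR-152-3p averaged 174 ± 20.4 CPM in differentiated and 161 ± 36.1 CPM in undifferentiated input, a log2 fold change of 0.12 ± 0.33 (95% interval -0.59 to 0.83, adjusted p = 0.760). This lay 0.76 above the median, and higher calls came with DESeq2 (0.81, adjusted p = 0.0346), RLE factors (0.74) and TMM factors (0.77). miR-148a-3p did not pass the filter on low reads; without that filter it was at -0.85 ± 0.35 (adjusted p = 0.0878). Thus 1 of the 2 tested members fell, where 62.3% of 313 names were called, 46.3% as lower and 16.0% as higher. That split was 50 up and 145 down, against 87 and 91 with DESeq2, and the fall of miR-148b-3p was called under all of the alternatives, at -2.02 to -1.05. As these are bulk lysates, fewer cells with a miRNA and less of it per cell cannot be told apart.

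The makeup of the family differed between the states in these input libraries. The exact permutation p for miR-152-3p and miR-148b-3p was 0.10, and 0.30 after Benjamini-Hochberg adjustment. miR-152-3p made up 14.2, 17.1 and 17.5% of the family reads in differentiated input (of 703, 586 and 401 reads) and 5.88, 4.39 and 4.94% in undifferentiated input (of 697, 1321 and 2410 reads). The groups did not overlap, and the means differed by 11.2 percentage points. How often shares within other families separate was not counted. On level, 62.3% of 313 names were called between these inputs. miR-148b-3p made the opposite move, with a mean of 82.6 ± 2.15% in differentiated and 94.0 ± 0.43% in undifferentiated input. As the 3 shares add up to the whole, this move is not a separate observation. miR-148a-3p took 1.16 ± 0.42% and 0.94 ± 0.33% of the family reads in differentiated and undifferentiated input, with overlap. Such a share does not depend on the scaling between libraries.

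In the bait eluates the makeup also differed between the states. With the MRTF-A bait miR-152-3p made up 11.6, 14.6 and 16.7% of family reads in differentiated cells and 5.37, 3.42 and 3.21% in undifferentiated cells, a difference of 10.3 points without overlap. Here too the separation within other families was not counted, and on level 38.5% of 169 names were called. Between bait and input of a state the shares overlapped. In differentiated cells miR-152-3p took 14.3 ± 2.58% with the bait and 16.2 ± 1.76% in input (exact p = 0.40, two-sided permutation), and in undifferentiated cells 4.0 ± 1.19% with the bait and 5.07 ± 0.75% in input (exact p = 0.30). For the difference between the states the exact permutation p was 0.10 in input and with the bait, the smallest that 3 libraries against 3 allow, and 0.30 after Benjamini-Hochberg adjustment over the 12 shares compared. The differentiated MS2control libraries held 15.4, 16.7 and 18.2% on only 13, 6 and 11 family reads, and the undifferentiated ones 55.6, 0 and 12.5% on 9, 15 and 8.

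**Figure D2:**
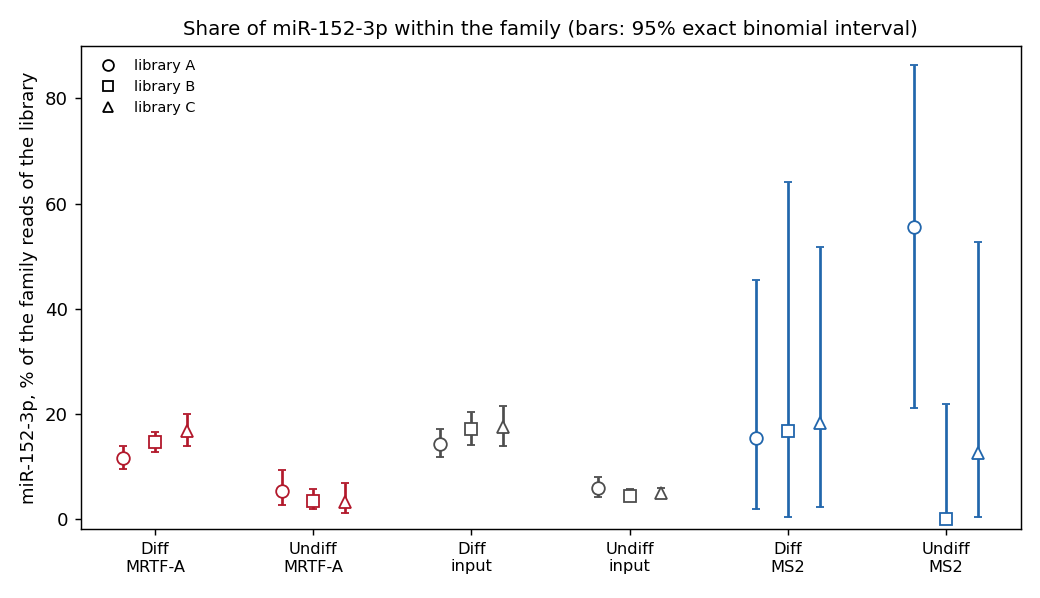
Share of miR-152-3p among the reads of the family in each library, in percent, with 95% exact binomial intervals that cover counting error only. Differentiated bait eluates (11.6 to 16.7%) and input (14.2 to 17.5%) lie above undifferentiated bait eluates (3.21 to 5.37%) and input (4.39 to 5.88%), while the MS2control shares rest on 15 or fewer reads each.

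Against the MS2control, the bait eluates held more miR-148b-3p in both states. In undifferentiated cells it averaged 2810 ± 492 CPM with the bait and 139 ± 36.2 CPM with the control, a log2 fold change of 4.26 ± 0.34 (adjusted p = 2.60e-07), which is 3.10 above the median of all names. In differentiated cells it averaged 3176 ± 556 CPM with the bait and 260.2 ± 97.9 CPM with the control (3.61 ± 0.34, adjusted p = 9.32e-07), 1.24 above the median. It was higher in 3 of 3 bait libraries each time, and the call held under all of the alternatives, at 2.41 to 4.44 in undifferentiated and 2.18 to 3.88 in differentiated cells, the lowest values being those with library totals. Without the 3 MS2control libraries of more human-named reads it was 4.23 and 3.64 in undifferentiated and differentiated cells.

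miR-152-3p was called in differentiated cells, at 537 ± 108 CPM with the bait and 51.6 ± 16.2 CPM with the control (3.17 ± 0.82, adjusted p = 0.00354), 0.80 above the median. With library totals it missed the threshold, at 1.82 (adjusted p = 0.101), and with a pseudocount of 1 at 3.38 (adjusted p = 0.0502). In undifferentiated cells it was at 120.2 ± 46.6 CPM with the bait and 61.8 ± 89.2 CPM with the control (1.72 ± 0.82, 95% interval -0.07 to 3.50, adjusted p = 0.0870). This value turned on undifferentiated MS2control libraries A, with 5 of the 6 control reads, and B, with 0. Without A it was 2.81 (adjusted p = 0.00131), and without B it was 0.75 (adjusted p = 0.368). Library A is one of the 3 with more human-named reads.

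miR-148a-3p averaged 62.5 ± 11.3 CPM in differentiated bait eluates, against 0 reads in the 3 differentiated MS2control libraries. A count of 0 allows up to 31.2 CPM over these 3 libraries together (3 reads over the group). The mean bait level was 2.0 times this limit, a ratio that leaves out the counting error and spread of the bait libraries. By library totals the bait mean of 36.5 reads per library total, on the CPM scale, was below the 48.7 that 3 reads stand for, and no fold can be given. In the authors' own test of this comparison miR-148a-3p had an FDR of 0.0590, which missed the threshold used here. Without the filter on low reads limma called it (adjusted p = 0.00463), in a fit that called 192 of 1151 names. That call rests on a control of 0 reads in all 3 libraries, which shows no spread. In undifferentiated cells the same fit gave 1.28 ± 0.67 (adjusted p = 0.347), on 10 bait reads and 2 control reads.

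Of the tested members 1 of 2 was higher with the bait in undifferentiated and 2 of 2 in differentiated cells, where 60.4% and 79.3% of 169 names were called, 43.2% and 57.4% as higher and 17.2% and 21.9% as lower. These splits, 73 higher and 29 lower and 97 and 37, were 55 and 63 and 73 and 49 with library totals. The difference of the bait effect between the states was -0.65 ± 0.48 for miR-148b-3p (95% interval -1.69 to 0.39, adjusted p = 0.422) and 1.45 ± 1.16 for miR-152-3p (95% interval -1.07 to 3.97, adjusted p = 0.450). Neither passed, where 13.0% of 169 names did, 8.28% up and 4.73% down (14 and 8, against 11 and 21 with RLE factors).

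Relative to input, the bait eluates of differentiated cells held more miR-148b-3p (1.82 ± 0.35, adjusted p = 0.000203), 1.96 above the median. With library totals, where the median of all names was -0.83, the value was 0.63 (adjusted p = 0.165) and no longer called. miR-152-3p was at 1.56 ± 0.70 (95% interval 0.09 to 3.03, adjusted p = 0.0610) in these cells, and was called with edgeR (1.62) and DESeq2 (1.55). In the authors' own test it was at 1.62 (FDR 0.00283) and miR-148a-3p at 2.30 (FDR 0.00214), where 291 names had an FDR under 0.05. miR-148a-3p did not pass the filter on low reads. Without that filter it was at 1.70 ± 0.57 (limma, adjusted p = 0.0451), on 44 bait and 19 input reads, where 307 of 1604 names were called. In undifferentiated cells that fit gave 0.10 ± 0.57 for miR-148a-3p, which was not called. In undifferentiated cells miR-148b-3p was at -0.09 ± 0.35 (95% interval -0.82 to 0.65, adjusted p = 0.837) and miR-152-3p at -0.44 ± 0.70 (adjusted p = 0.603). The call for miR-148b-3p in undifferentiated cells depended on the scaling: it was higher with RLE factors (1.19, adjusted p = 0.00923) and DESeq2 (1.20, adjusted p = 2.82e-06), and lower with library totals (-1.01, adjusted p = 0.0300). miR-152-3p turned to 0.74 with RLE factors and 0.85 with DESeq2. The median of all names was -0.17 with RLE factors, against -1.04 with the authors' scaling. Of 305 names 62.0% were called in differentiated and 68.5% in undifferentiated cells: 31.1% were higher and 30.8% lower in differentiated bait eluates, and 23.3% and 45.2% in undifferentiated ones. The splits were 95 and 94 (69 and 125 with library totals) and 71 and 138 (112 and 99 with DESeq2). Tested after the data were seen, the difference between the states was 1.91 ± 0.49 for miR-148b-3p (adjusted p = 0.0130), 1.02 above the median, and 1.99 ± 0.98 for miR-152-3p (adjusted p = 0.173), where 20.3% of names were called, 16.7% up and 3.61% down (51 up and 11 down, against 9 and 33 with DESeq2). With DESeq2 it was 0.54 for miR-148b-3p (adjusted p = 0.341).

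In the bait eluates themselves, differentiated against undifferentiated, miR-148b-3p was at 0.18 ± 0.34 (95% interval -0.56 to 0.91, adjusted p = 0.748) and miR-152-3p at 2.11 ± 0.82 (95% interval 0.33 to 3.90, adjusted p = 0.0596), 1.78 above the median. miR-152-3p passed with edgeR (2.17, adjusted p = 0.00483), DESeq2, a pseudocount of 50 and TMM factors of the eluates. Neither was called in the main test, where 38.5% of 169 names were, 23.7% up and 14.8% down (40 up and 25 down, against 33 and 37 with RLE factors). In the MS2control eluates miR-148b-3p was at 0.83 ± 0.34 (adjusted p = 0.0955) and miR-152-3p at 0.66 ± 0.82 (adjusted p = 0.590). Of all names 24.9% were called there, 16.0% up and 8.88% down. Without undifferentiated library A miR-152-3p was at 1.76 (adjusted p = 0.0409), and without library B at -0.30 (adjusted p = 0.846). In the authors' deposited table, miR-148b-3p was lower with the MS2control than in input, with log2 fold changes of -1.79 in differentiated cells (FDR 0.000529) and -4.40 in undifferentiated cells (FDR 1.15e-22). Of the 2042 names listed, 165 and 202 had an FDR under 0.05 in these comparisons. miR-152-3p was at -1.74 (FDR 0.193) and -1.94 (FDR 0.123), and neither it nor miR-148a-3p passed.

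**Figure D3:**
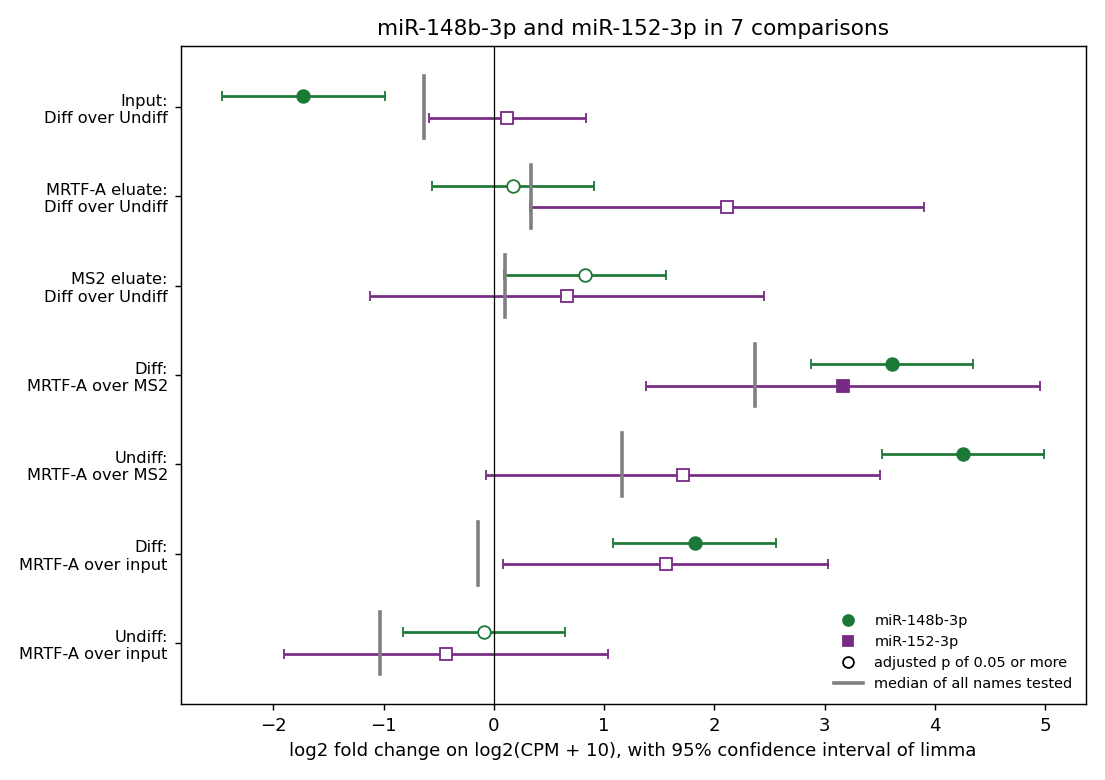
Log2 fold changes of miR-148b-3p (circles) and miR-152-3p (squares) in 7 comparisons, with 95% confidence intervals; filled symbols have an adjusted p under 0.05 and grey ticks give the median of all names tested. miR-148b-3p falls in differentiated input (-1.73) and is above the MS2control in differentiated (3.61) and undifferentiated cells (4.26).

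The opposite arms of the hairpins behaved unlike one another. They are shown with bases 2 to 8 in capitals, because the 5p arms do not all share a seed:
miR-148b-5p: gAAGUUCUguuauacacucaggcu
miR-152-5p: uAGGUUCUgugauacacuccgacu
miR-148b-5p was rare beside its 3p partner, at 0.610 to 2.29% of the reads of both arms in differentiated input and 0.240 to 0.610% in undifferentiated input. miR-152-5p was a sizeable product, at 38.3, 43.8 and 17.6% of both arms in differentiated input and 29.3, 22.7 and 26.1% in undifferentiated input. miR-148a-5p had 1 read in differentiated and 3 in undifferentiated input. Only miR-152-5p was tested in input, at 0.51 ± 0.45 (adjusted p = 0.341), and it passed without differentiated library C (1.09, adjusted p = 0.0328), with DESeq2 (1.46) and with RLE factors (1.08).

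The differentiated libraries lettered C stood apart in these arms. miR-152-5p had 84, 144 and 10 reads in differentiated bait libraries A, B and C, and miR-148b-5p had 61, 54 and 1, while their 3p partners had 98, 193 and 105 and 732, 1118 and 508. In differentiated input library C was again the lowest, with 62, 78 and 15 reads of miR-152-5p and 14, 6 and 2 of miR-148b-5p. In undifferentiated bait eluates the arms had 0, 2 and 3 reads of miR-152-5p and 0, 0 and 1 of miR-148b-5p, and in the MS2control eluates both had 0 reads. Against input, miR-152-5p was at 1.26 ± 0.70 in differentiated bait eluates (adjusted p = 0.125), and was called without bait library C (2.20, adjusted p = 0.00507) and with edgeR (1.62). In undifferentiated bait eluates it was at -1.49 ± 0.70 (adjusted p = 0.0684). There it was called lower without bait library C (-2.01, adjusted p = 0.0267) and with library totals (-1.86), and was at -0.88 without bait library A.

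**Figure D4:**
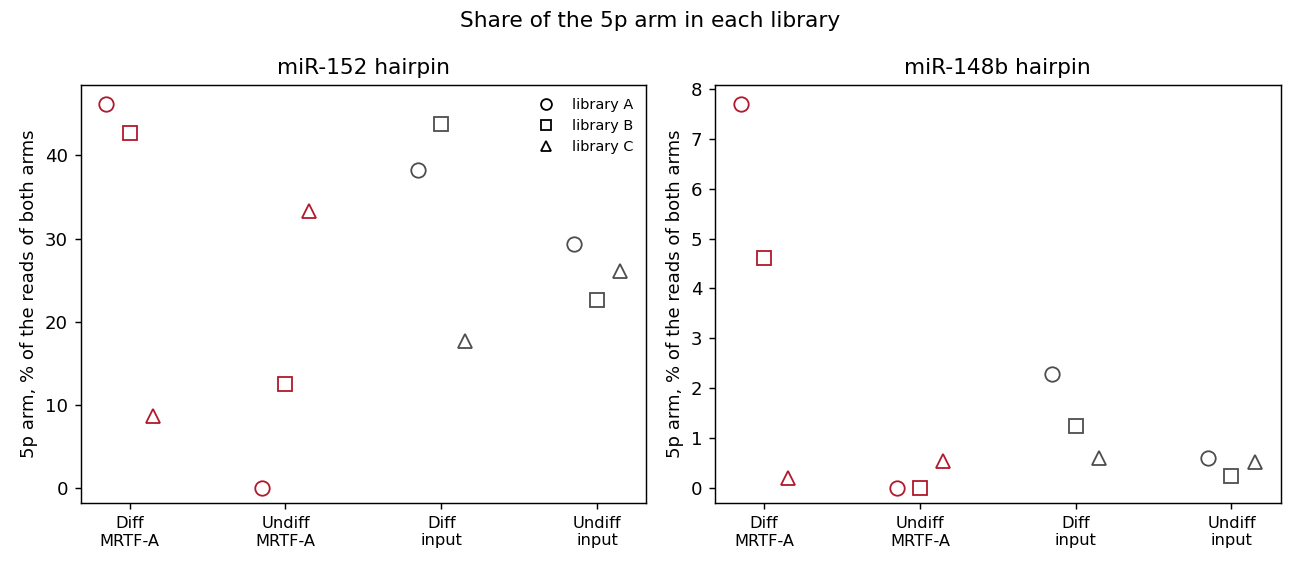
Reads of the 5p arm as a percent of the reads of both arms, for the miR-152 and miR-148b hairpins in bait eluates and input; the vertical axes differ in scale. Library C (triangles) of the differentiated bait eluates lies at 8.70 and 0.196%, against 42.7 to 46.2% and 4.61 to 7.69% in libraries A and B.

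The letters that pair with the family seed were looked for in the longest annotated Mrtfa 3'UTR (1004 bases, chr15:81012281-81013284, minus strand, GENCODE vM21 on GRCm38), on the strand of the mRNA. It held 0 matches to TGCACTG, the reverse complement of bases 2 to 8, and 0 to GCACTG or TGCACT, the reverse complements of bases 2 to 7 and 3 to 8, which both lie within TGCACTG. Of 10216 mouse 3'UTRs of at least this length, the first 1004 bases held TGCACTG in 10.3%, GCACTG in 30.0% and TGCACT in 26.4%. This says only that these letters are not in this window.

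Over the 18 libraries, the names with the pattern most like that of miR-148b-3p on the log2(CPM + 10) scale were let-7f-5p (Pearson r = 0.95), let-7j (0.95) and let-7g-5p (0.94), of the names kept in the fit of all libraries. For miR-152-3p they were miR-125b-2-3p (0.83), miR-149-5p (0.83) and miR-378d (0.80), and for miR-148a-3p let-7e-5p (0.89), let-7d-3p (0.87) and let-7b-3p (0.84). Within the family r was 0.74 for miR-148a-3p with miR-148b-3p, 0.71 for miR-148b-3p with miR-152-3p and 0.61 for miR-148a-3p with miR-152-3p. The points share the kind of library and its depth, so these values describe the 18 libraries only.

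Other miRNAs known to repress DNA methyltransferase genes in human cells were set beside the family: miR-29a-3p, miR-29b-3p, miR-29c-3p, miR-143-3p and miR-342-3p. In input 0 of 5 rose and 2 fell, where 16.0% of all names rose and 46.3% fell, around a median of -0.35 against -0.64 for all names. The most abundant of the list, miR-143-3p, was at 0.50 ± 0.37 (adjusted p = 0.260). It was called higher with DESeq2 (1.24), library totals (1.01), RLE (1.15) and TMM factors (1.18), and without differentiated library C (0.88), so the count of 0 holds for the authors' scaling with all libraries. miR-29a-3p was at -0.35 ± 0.37 (adjusted p = 0.434), positive with DESeq2, RLE, TMM and library totals. The falls, named after their values were seen, were those of miR-29b-3p (-1.42 ± 0.38, adjusted p = 0.00648) and miR-342-3p (-1.45 ± 0.40, adjusted p = 0.00752). With TMM factors both calls were lost (-0.83 for miR-29b-3p and -0.82 for miR-342-3p), and with RLE factors that of miR-342-3p (-0.85). Against the MS2control 1 of 3 tested was higher in undifferentiated cells, miR-342-3p (3.88 ± 0.68, adjusted p = 0.000258), and 2 of 3 in differentiated cells, miR-342-3p (4.04 ± 0.68, adjusted p = 0.000138) and miR-29a-3p (4.07 ± 0.97, adjusted p = 0.00204), with 0 lower in either state, where 43.2% of all names were higher in undifferentiated and 57.4% in differentiated cells. miR-29a-3p was at 1.24 ± 0.97 in undifferentiated cells (adjusted p = 0.275). miR-143-3p was at 0.20 ± 0.25 in differentiated cells (adjusted p = 0.466), where DESeq2 (-0.59) and library totals (-1.24) called it lower. In undifferentiated cells it was at -0.50 ± 0.25 (adjusted p = 0.0971), and was called lower with DESeq2 (-0.92), library totals (-2.39), RLE (-0.78) and TMM factors (-0.76) and without MS2control library B (-0.66). In a list of muscle differentiation miRNAs, 26 were tested in input, of which 12 rose and 7 fell around a median of 0.76, where 16.0% of all names rose and 46.3% fell around -0.64. The most abundant, miR-378a-3p (1.58 ± 0.33, adjusted p = 0.00115) and the muscle-specific miR-133a-3p (6.48 ± 0.56), rose. With the bait 8 of 18 were higher and 2 lower in undifferentiated cells and 11 higher and 2 lower in differentiated cells, around medians of 0.74 and 1.75 against 1.16 and 2.37 for all names. Of all names 43.2% were higher and 17.2% lower in undifferentiated cells, and 57.4% higher and 21.9% lower in differentiated cells, so the counts of higher calls were near the background.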

How the data were processed

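Per the submitters' processing notes, the authors worked on GRCm38/mm10 with edgeR (3.18.1), featureCounts (1.4.6), Bowtie2 (2.0.13) and cutadapt (1.4.2). Their settings and handling of strand and multiply mapped reads were not found in these notes or in the labels. The deposited signal is the authors' normalised CPM of each miRNA. The log2 fold changes, p-values and FDR values are the authors' own, per the file headers. In each library 100% of signal values were whole multiples of 1 read within 0.01 read, which gave whole reads and the effective library size.

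Names were kept by filterByExpr on these reads and tested with limma 3.58.1 (R 4.3.3) with a trend on log2(CPM + 10), where 10 is the pseudocount. The fits held the 6 inputs, the 12 eluates or all 18 libraries. This scale understates changes of low miRNAs. p-values were adjusted by Benjamini-Hochberg over all names tested, with a threshold of 0.05. Alternatives were edgeR 4.0.16 and DESeq2 1.42.0 run on the recovered reads, other pseudocounts and scalings, no filter, a suffix block and leaving out each library. The labels tie the suffixes to no shared source. Over 45 same-suffix pairs of libraries, deviations from the group means correlated at r of -0.31 to 0.40, and 27 correlated best with their own suffix. In 2 of 15 pairs of groups all 3 were above 0.1: differentiated bait with differentiated input (0.13 to 0.40) and with the differentiated MS2control (0.10 to 0.17). The main fits and the share tests printed above did not pair libraries by suffix, in these comparisons or in any other. Pairing by suffix was run only as an alternative. The fits were tested on simulated data. Shares were compared by exact permutation. Exact binomial intervals and floors of 3 reads cover counting error only. Intervals of the fold changes are those of limma and rest on the spread between libraries. Members, lists and tests were chosen with earlier results of these data known. Named miRNAs are the members, their opposite arms, the 3 names most alike by Pearson r, and the most abundant names of the lists, plus the called names of the methyltransferase list, added after their values were seen. Tables and figures used Python 3.11.15 with numpy 2.4.6, pandas 2.3.3 and matplotlib 3.10.9.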

Additional observations from a re-analysis of the deposited data

Results flagged for a closer look

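The difference of the bait effect over input between differentiated and undifferentiated cells was past the threshold for miR-148b-3p, at 1.91 on the log2 scale (limma, adjusted p = 0.0130), which is why it is listed. Bait over input was 1.82 in differentiated and -0.09 in undifferentiated cells. The bait level itself was at 0.18 between the states and the input level at -1.73. The difference was 0.54 with DESeq2 and with RLE factors, and was not called there.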

How the results depend on the processing

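The calls for miR-148b-3p in input and against the MS2control kept their direction and their side of the threshold under every alternative that kept more than a single library in each group. The fit without the MS2control libraries of more human-named reads left only library C of the differentiated control, and gave 3.64 there. The causes of the changes below were not tested. In input miR-152-3p was called with DESeq2 (0.81), RLE (0.74) and TMM factors (0.77), and leaving out a library gave -0.039 to 0.27. Against the MS2control it missed the threshold in differentiated cells with a pseudocount of 1 (3.38) and library totals (1.82). In undifferentiated cells it was called without the MS2control libraries of more human-named reads (2.81), and leaving out a library gave 0.75 to 2.81. In the MS2control eluates leaving out a library gave -0.30 to 1.76. In the bait eluates, differentiated against undifferentiated, miR-152-3p was called with edgeR (2.17), DESeq2 (1.67), a pseudocount of 50 (1.81) and TMM (2.24), while miR-148b-3p turned to -0.33 with DESeq2 and -0.24 with RLE.

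Bait against input in undifferentiated cells, miR-148b-3p was called higher with DESeq2 (1.20) and RLE (1.19) and lower with library totals (-1.01); leaving out a library gave -0.37 to 0.083. miR-152-3p turned to 0.85 with DESeq2 and 0.74 with RLE. In differentiated cells miR-148b-3p fell short with library totals (0.63), and miR-152-3p was called with edgeR (1.62), DESeq2 (1.55) and a pseudocount of 50 (1.38). There 307 names were called without the filter. The difference of the bait effect over input was not called for miR-148b-3p with DESeq2 (0.54), RLE (0.54), library totals (1.64) or no filter (1.91). It was called for miR-152-3p with edgeR (2.07) and a pseudocount of 50 (1.71). Of all names it called 22 with a pseudocount of 1, 39 without the filter, 24 with library totals, 21 with RLE and 36 to 58 with a library left out, the fewest without differentiated input library A, against 62.

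The difference of the bait effect over the MS2control called 22 names, but 0 with edgeR (40 at an unadjusted p under 0.05; DESeq2 called 21), 11 and 38 with pseudocounts of 1 and 50, 2 without the filter, 14 with library totals and 6 to 25 with a library left out. The 6 came without differentiated bait library B, and 14 without its library C. miR-29a-3p turned in input with DESeq2 (0.28), library totals (0.16), RLE (0.29) and TMM (0.33), and against the MS2control in undifferentiated cells with library totals (-0.55). miR-143-3p turned in differentiated cells with DESeq2 (-0.59), library totals (-1.24) and RLE (-0.46).

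A replicate block by suffix called 180 names in input against 195, 135 against 134 for bait over the MS2control and 192 against 189 for bait over input in differentiated cells, and changed no member's call. With 15562 to 39695 reads, the MS2control libraries limit folds of low members.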

Other observations

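The low reads of 5p arms in differentiated library C, noticed in the data, were counted over all names with at least 20 reads in libraries A and B of a group. In differentiated bait eluates 10 of 80 names ending in 5p had a level in library C under the lower of A and B divided by 3, against 1 of 58 names ending in 3p. In differentiated input the numbers were 5 of 94 and 0 of 91. In undifferentiated bait eluates they were 1 of 40 and 0 of 31, and in undifferentiated input 0 of 89 and 0 of 83. No test was made of this pattern.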
